A study of Mus musculus with 18 samples.

Results

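Some neighbouring genes sit so close together that 1 short stretch of DNA serves as the promoter of both. A gap between neighbours is such a shared promoter only where both genes start at it. Here all gaps of at most 1 kb between neighbouring, non-overlapping protein-coding genes on chromosomes 1 to 19 were taken, whatever the orientation of the genes. They were kept where an H3K4me3 peak overlapped the gap in at least 3 of 9 peak lists. Of 1958 such gaps, 1193 met the peak criterion, and the region measured was the gap with 5 kb on either side. The 1193 regions hold 2273 of the 20665 coding genes on these chromosomes, and 113 genes belong to 2 regions. A further 666 gaps had no peak in any list and 99 had one in 1 or 2 lists. The peaks over the gap chose the regions, so the regions were chosen by measured values, and peak presence over the gap is given as a description with no test.

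H3K4me3 is a histone mark concentrated at the start sites of active and poised genes, mapped here by CUT&RUN, where marked chromatin is cut loose by a nuclease tethered to an antibody. Libraries were made from 4000 nuclei each of E17.5 mouse prospermatogonia, germ cells of the fetal testis that are arrested and regaining DNA methylation, sorted on an Oct4-GFP reporter. The 3 genotypes were Tet1-/- (KO), Tet1HxD/HxD (HxD, an allele changed in the HxD motif of the catalytic domain and known as catalytically inactive) and Tet1+/+ (WT), with 3 biological replicates of each. All samples share the reporter gate and the batch label 1, and the 9 IgG samples of the series are not used here. TET1 oxidises 5-methylcytosine, and the series asks what it does to chromatin apart from that catalysis. The sources used here do not say whether replicates came from separate litters, so p-values measure the spread between these samples. Peak lists hold no read counts, so the depth behind each value is unknown.

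Where neighbouring genes point away from each other, their start sites face the same gap, and such divergent promoters are typically rich in CpG dinucleotides and open in both directions. Nucleosomes carrying H3K4me3 then lie on both flanks, and the gap itself is often depleted of nucleosomes. Genes of DNA repair, replication, metabolism and the mitochondrion are known to be frequent among divergent pairs. In tandem pairs only the downstream gene starts next to the gap, and in convergent pairs neither does.

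The promoter sequences of 9 of these genes are shown because they carry the gaps of well-known divergent pairs, of pairs whose gap had a peak in KO and HxD but not WT libraries, and of pairs that rank at the ends of the KO or HxD comparison with WT. They run 5′ to 3′ from 250 bases before to 50 bases after the start of the gene named (RefSeq, GRCm38.p6), and capitals mark the bases that lie in the gap. The Npat window (chr9:53536797-53537096, plus strand) faces Atm, the Nbr1 window (chr11:101551857-101552156, plus strand) faces Brca1, and the Tex14 window (chr11:87404815-87405114, plus strand) faces Rad51c. The Ndufa11 window (chr17:56717512-56717811, plus strand) faces Vmac, the Xpo5 window (chr17:46202561-46202860, plus strand) faces Polh, and the Mgat2 window (chr12:69183908-69184207, plus strand) faces Rpl36al. The Rpl4 window (chr9:64173137-64173436, plus strand) lies next to Zwilch, the Il18r1 window (chr1:40465302-40465601, plus strand) follows Il1rl1 in tandem, and the Fxyd5 window (chr7:31042282-31042581, minus strand) lies next to Fxyd7.
Npat: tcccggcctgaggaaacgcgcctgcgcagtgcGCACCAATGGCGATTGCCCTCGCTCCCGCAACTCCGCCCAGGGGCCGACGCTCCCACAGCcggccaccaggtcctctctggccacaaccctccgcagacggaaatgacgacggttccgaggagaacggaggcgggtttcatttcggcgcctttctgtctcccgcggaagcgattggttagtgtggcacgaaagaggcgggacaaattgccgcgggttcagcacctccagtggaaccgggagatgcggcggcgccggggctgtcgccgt
Nbr1: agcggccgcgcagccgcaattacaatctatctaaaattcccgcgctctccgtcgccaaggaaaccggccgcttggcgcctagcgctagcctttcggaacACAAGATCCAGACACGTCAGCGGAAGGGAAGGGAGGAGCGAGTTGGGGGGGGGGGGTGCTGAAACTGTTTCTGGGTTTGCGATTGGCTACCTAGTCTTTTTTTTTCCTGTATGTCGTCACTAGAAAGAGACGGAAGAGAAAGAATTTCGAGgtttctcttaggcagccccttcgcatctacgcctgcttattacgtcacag
Tex14: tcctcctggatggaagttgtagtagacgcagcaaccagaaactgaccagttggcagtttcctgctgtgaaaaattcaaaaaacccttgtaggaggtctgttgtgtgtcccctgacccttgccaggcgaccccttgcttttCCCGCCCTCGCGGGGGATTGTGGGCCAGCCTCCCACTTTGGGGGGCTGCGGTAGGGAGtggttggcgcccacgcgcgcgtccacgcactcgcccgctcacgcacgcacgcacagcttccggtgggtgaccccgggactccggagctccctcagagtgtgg
Ndufa11: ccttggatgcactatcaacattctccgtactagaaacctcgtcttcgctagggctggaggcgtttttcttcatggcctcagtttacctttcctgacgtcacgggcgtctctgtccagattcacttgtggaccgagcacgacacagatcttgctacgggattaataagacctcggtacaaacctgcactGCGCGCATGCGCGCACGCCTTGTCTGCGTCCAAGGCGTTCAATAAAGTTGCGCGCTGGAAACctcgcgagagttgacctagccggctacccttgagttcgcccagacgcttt
Xpo5: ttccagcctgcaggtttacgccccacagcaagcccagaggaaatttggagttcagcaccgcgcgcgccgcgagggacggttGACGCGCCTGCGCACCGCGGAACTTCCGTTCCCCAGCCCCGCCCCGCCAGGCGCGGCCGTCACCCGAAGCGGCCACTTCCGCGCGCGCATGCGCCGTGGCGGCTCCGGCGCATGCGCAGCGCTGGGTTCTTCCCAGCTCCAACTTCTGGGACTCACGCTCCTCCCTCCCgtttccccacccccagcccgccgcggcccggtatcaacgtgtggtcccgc
Mgat2: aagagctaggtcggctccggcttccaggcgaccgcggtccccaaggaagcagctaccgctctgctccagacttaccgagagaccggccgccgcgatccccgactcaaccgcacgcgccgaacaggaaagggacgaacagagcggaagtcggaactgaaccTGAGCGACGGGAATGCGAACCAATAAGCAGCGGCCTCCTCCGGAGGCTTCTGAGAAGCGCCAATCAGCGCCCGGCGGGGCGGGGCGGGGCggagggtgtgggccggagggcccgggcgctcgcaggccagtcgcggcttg
Rpl4: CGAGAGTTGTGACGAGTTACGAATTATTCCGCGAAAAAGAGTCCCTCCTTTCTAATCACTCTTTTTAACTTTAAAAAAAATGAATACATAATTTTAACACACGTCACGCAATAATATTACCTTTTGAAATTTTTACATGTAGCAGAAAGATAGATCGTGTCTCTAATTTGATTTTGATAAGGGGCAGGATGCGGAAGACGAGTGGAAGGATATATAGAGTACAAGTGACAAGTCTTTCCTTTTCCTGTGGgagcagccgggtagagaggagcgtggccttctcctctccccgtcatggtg
Il18r1: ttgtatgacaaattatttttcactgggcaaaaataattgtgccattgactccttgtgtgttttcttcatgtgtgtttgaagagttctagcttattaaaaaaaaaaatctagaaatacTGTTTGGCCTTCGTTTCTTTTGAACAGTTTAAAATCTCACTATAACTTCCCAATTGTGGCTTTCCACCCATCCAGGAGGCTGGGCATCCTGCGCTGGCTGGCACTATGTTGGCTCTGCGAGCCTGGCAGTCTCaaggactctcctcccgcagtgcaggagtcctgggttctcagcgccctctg
Fxyd5: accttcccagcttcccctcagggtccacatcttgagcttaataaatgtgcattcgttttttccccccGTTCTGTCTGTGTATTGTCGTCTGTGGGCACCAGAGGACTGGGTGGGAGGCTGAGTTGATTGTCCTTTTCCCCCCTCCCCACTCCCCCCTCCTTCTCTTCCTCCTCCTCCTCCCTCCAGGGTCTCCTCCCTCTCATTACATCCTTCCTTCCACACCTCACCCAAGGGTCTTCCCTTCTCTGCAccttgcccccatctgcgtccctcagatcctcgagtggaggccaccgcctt

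The windows differ in their CpG content. The Xpo5 window holds 40 CpG dinucleotides, the Mgat2 window 37, the Npat window 35, the Ndufa11 window 25, the Nbr1 window 23 and the Tex14 window 20. The Rpl4 window, which is poorer in G and C (40.7%), holds 13, the Fxyd5 window 6 and the Il18r1 window 5. The CCAAT box (CCAAT, read on both strands) lies in the gap of the Npat, Nbr1, Mgat2 and Il18r1 windows. The GC box (GGGCGG, read on both strands) lies in the gap of the Npat, Tex14, Xpo5 and Mgat2 windows. None of the 7 motifs searched is found in the Rpl4 and Fxyd5 windows.

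The orientation of a pair could be set where both genes are in the promoter table, which gives strand and sequence for 1880 of the 2273 genes. Of the 1193 regions, 528 are divergent, 311 tandem and 35 convergent, and 319 have an unresolved orientation because at least 1 gene is not in that table. The peak criterion kept 96.4% of the 548 divergent gaps, 71.5% of the 435 tandem gaps and 8.45% of the 414 convergent gaps. The gap was short in divergent pairs, with a median of 99.5 bp (quartiles 47 and 228), and longer in tandem pairs, with a median of 456 bp (quartiles 233.5 and 691.5). Over all 1193 regions the median was 201 bp. A peak lay over the gap in all 9 lists at 537 regions, in 8 lists at 309 and in 7 lists at 150, while 25 regions met the criterion with exactly 3. The regions with 3 lists had a median of 1575 bp of H3K4me3, averaged over the libraries, and the 40 left out with 2 lists had 1890 bp. Of the 25, 1 passed through KO libraries alone, 1 through HxD alone and 3 through WT alone. There are 139 regions that overlap another of these regions, and 67 contain a predicted or provisional gene.

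The measure is the number of bases per region covered by peaks, so it depends on how much was called in each library as well as on the mark. The lists hold 71949, 80232 and 69901 peaks in KO libraries, 67925, 49624 and 62247 in HxD libraries, and 95523, 83586 and 128701 in WT libraries. KO replicate 1 had the shortest peaks, with a median of 433 bp, against 641 to 793 bp in the other 8 libraries. The targeted gene, Tet1 on chromosome 10, is in no adjacent pair. Its promoter was covered over 2732, 3331 and 4851 bp in KO libraries, 3495, 3260 and 2580 bp in HxD libraries, and 2570, 2415 and 3315 bp in WT libraries, a mark that does not check the alleles (limma adjusted p = 0.478 for KO and 0.864 for HxD). Germ cell marker promoters were marked in all 9 libraries for 8 of 12 genes. So did 8 of 8 Sertoli markers, 4 of 8 Leydig or interstitial markers and 4 of 8 endothelial or blood markers. The germ cell marker Piwil2 and the somatic markers Star, Cyp17a1, Hsd3b1, Pecam1, Ptprc, Csf1r and Hbb-bt had no gene end that met the filter. Summed over the list, Sertoli markers had 19297 to 27974 bp in KO, 16670 to 26940 bp in HxD and 27476 to 31204 bp in WT libraries. The Leydig or interstitial sums were 9706 to 18223, 13031 to 17794 and 16455 to 24184 bp in KO, HxD and WT libraries, and the endothelial or blood sums were 4263 to 7574, 6001 to 7909 and 8068 to 8988 bp. Germ cell sums were 19730 to 30760, 16031 to 25892 and 16178 to 21232 bp. In bulk nuclei, fewer cells of a type and less mark per cell cannot be told apart, and the part of these cells in the results was not tested.

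H3K4me3 at the adjacent pairs took a clear shape around the gap. At divergent pairs both flanks were covered to similar lengths. The left flank had median covered lengths of 897, 1026 and 1194 bp in KO, 1048, 922 and 864 bp in HxD, and 868, 894 and 1049 bp in WT libraries. The right flank had 938, 1077 and 1225 bp in KO, 1066, 944 and 888 bp in HxD, and 872, 883 and 1024 bp in WT libraries. At tandem pairs the mark lay mostly on the side of the gene that starts at the gap. That side had medians of 983 to 1301 bp in KO, 1011 to 1189 bp in HxD and 1035 to 1250 bp in WT libraries. The side where the upstream gene ends had 291 to 515 bp in KO, 269 to 469 bp in HxD and 397 to 604 bp in WT libraries. The side of the starting gene was the wider one at 71.4% to 75.2% of the 311 tandem pairs in each of the 9 libraries.

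**Figure D1:**
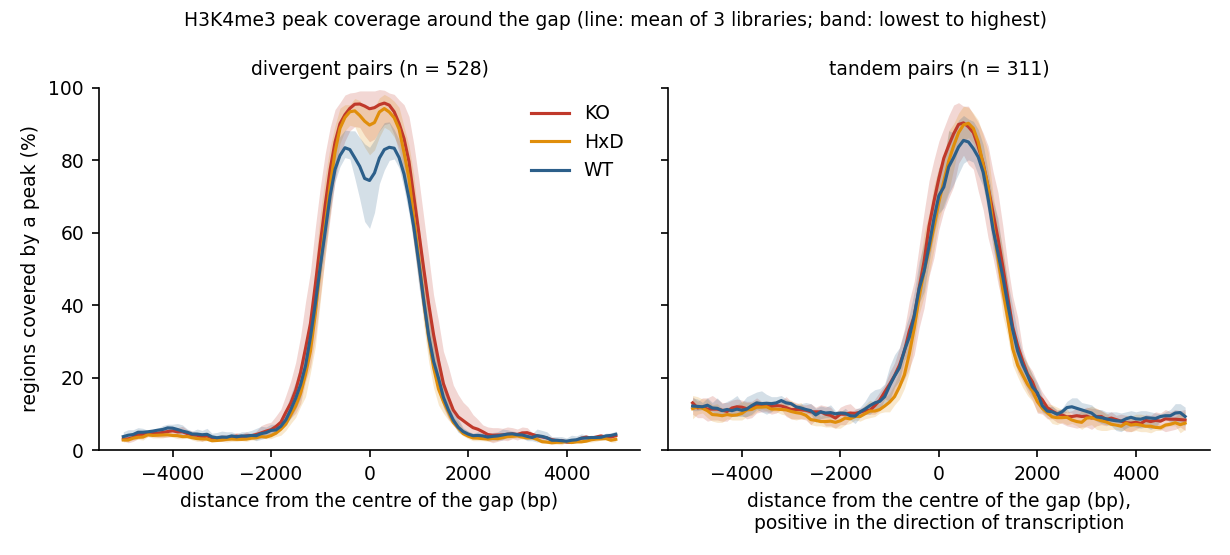
Share of regions covered by a peak (%, vertical axis) against the distance from the centre of the gap (bp, horizontal axis; for tandem pairs positive in the direction of transcription), for 528 divergent pairs on the left and 311 tandem pairs on the right. Lines are the mean of 3 libraries of each genotype and bands run from the lowest to the highest library; at the centre of divergent gaps the KO, HxD and WT means were 94.1%, 89.6% and 74.4%.

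The middle of the divergent gaps was covered less often in WT. At the gap centre a peak covered 85.04% to 99.1% of the 528 divergent pairs in KO libraries, 81.4% to 93.8% in HxD libraries and 61.2% to 83.5% in WT libraries. The WT range overlaps that of HxD but not that of KO. At 1 kb to the left of the centre the ranges overlapped throughout, with 42.2% to 72.5% in KO, 41.1% to 65.3% in HxD and 47.0% to 57.0% in WT libraries. At tandem pairs the centre was covered at 60.8% to 85.2% in KO, 63.3% to 78.1% in HxD and 65.3% to 77.8% in WT libraries, so the 3 ranges overlapped there.

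The peaks over divergent gaps can be sorted by their layout. A gap counts as joined when peaks cover it throughout and reach within 1 kb on both sides, and as split when peaks lie on both sides but leave part of the gap uncovered. Joined divergent gaps numbered 429, 514 and 519 of 528 in KO libraries, 484, 484 and 409 in HxD libraries, and 296, 379 and 420 in WT libraries. All KO libraries lay above all WT libraries, while HxD replicate 3 lay below WT replicate 3. Split divergent gaps numbered 64, 6 and 3 in KO libraries, 34, 19 and 82 in HxD libraries, and 177, 87 and 90 in WT libraries. Every WT library therefore had more split gaps than every KO or HxD library. Undivided coverage was also more frequent in mutants at other promoters. A single peak made up the whole coverage of the region at 49.3%, 58.4% and 59.0% of the 1193 regions in KO, 61.7%, 63.2% and 55.1% in HxD, and 39.1%, 49.8% and 36.9% in WT libraries. At the 13137 promoters of other genes it did so at 56.0%, 62.8% and 62.9% in KO, 66.6%, 68.1% and 60.7% in HxD, and 48.5%, 54.3% and 45.1% in WT libraries. The KO and WT ranges overlap at the adjacent pairs, through KO replicate 1 and WT replicate 2, and not at other promoters, and the HxD libraries lie above all WT libraries in both.

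**Figure D2:**
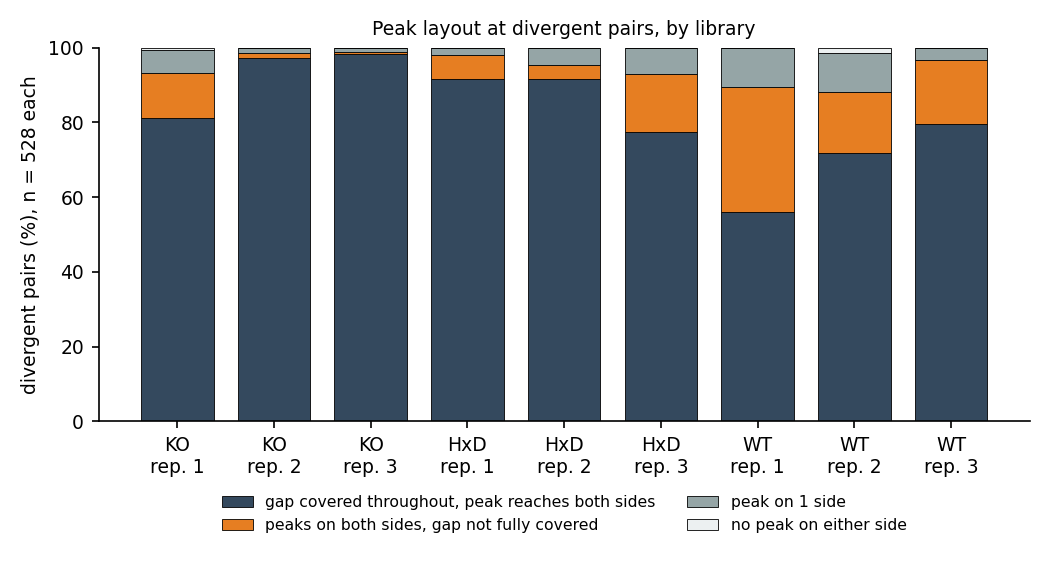
Layout of the peaks at the 528 divergent pairs in each of 9 libraries, as stacked shares in percent; dark segments are joined gaps, orange segments are gaps with peaks on both sides that leave part of the gap uncovered. The orange share was 0.568% to 12.1% in KO, 3.60% to 15.5% in HxD and 16.5% to 33.5% in WT libraries.

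The covered length of the regions was compared between genotypes with a linear model (limma) fitted across 14330 promoter units. These are the 1193 adjacent pairs and 13137 units of other genes, called other promoters here. For each other gene the end with more covered bases within 1 kb over all lists was taken, whatever the strand. Some of these units can therefore be 3′ ends. A start site of the gene in the promoter table lay within 1 kb at 8832 of them. P-values were adjusted over all units by the Benjamini-Hochberg procedure. The median adjacent pair was covered over 1916, 2305 and 2623 bp in KO libraries, 2344, 1994 and 1886 bp in HxD libraries, and 1901, 1959 and 2341 bp in WT libraries. Other promoters had medians of 1599, 2040 and 2249 bp in KO, 2055, 1692 and 1638 bp in HxD, and 1761, 1782 and 2162 bp in WT libraries. The genotypes overlap in both sets.

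No adjacent pair passed an adjusted p of 0.05 by limma between KO and WT, between HxD and WT or between KO and HxD. Over all 14330 promoter units, 0.0768% were called lower and 0.00698% higher in KO than in WT, and 0% were called in either direction in HxD. At an unadjusted p under 0.05, 113 adjacent pairs were higher and 40 lower in KO than in WT, or 9.47% and 3.35%, against a background of 6.11% and 7.95% of all promoter units. In HxD, 27 pairs were higher and 55 lower at that level, or 2.26% and 4.61%, against a background of 1.56% and 9.51%. Between KO and HxD, 25 pairs were higher and 1 lower in KO, against 2.53% and 0.258% of all units.

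The direction of the KO differences was nonetheless uneven. The KO mean was above the WT mean at 778 of 1193 pairs, or 65.2%, against a background of 51.5% of all promoter units. All 3 KO libraries lay above all 3 WT libraries at 146 pairs (12.2%, background 7.82%) and below them at 49 (4.11%, background 9.66%). The median difference, KO minus WT, was 209 bp over the adjacent pairs and 3 bp over other promoters. It was 560 bp and 274.5 bp when every list was cut to its 49624 strongest peaks, the length of the shortest list. In HxD the mean was above WT at 594 pairs, or 49.8%, against 37.3% of all units, and below it at 599, against 62.7%. All HxD libraries lay above all WT libraries at 47 pairs (3.94%, background 3.38%) and below them at 100 (8.38%, background 13.9%). The KO mean was above the HxD mean at 911 pairs (76.4%, background 70.7%) and not above it at the rest (background of lower means 28.9%), with all KO above all HxD libraries at 103 (8.63%, background 6.95%) and below at 6 (0.503%, background 0.754%). The median difference, HxD minus WT, was -3.33 bp over the adjacent pairs and -158 bp over other promoters, and with lists of equal length it was 347 bp and 127 bp. The direction of the HxD medians thus depends on how many peaks each list contributes, while the adjacent pairs lay above other promoters in both settings. The size of that excess varied over the alternatives in bp, from 28.7 to 286 bp for KO minus WT and from 34.0 to 220 bp for HxD minus WT. The peak criterion also differs between adjacent pairs and other promoters. Leaving out KO replicate 3 took the KO median over the adjacent pairs to 37.2 bp, and leaving out KO replicate 1 took it to 390 bp; for HxD the range was -137 bp without HxD replicate 1 to 147 bp without WT replicate 3.

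Coverage also differed by the orientation of the genes. Divergent pairs were covered over medians of 1996, 2311 and 2685 bp in KO libraries, 2336, 2061 and 1930 bp in HxD libraries, and 1836, 1916 and 2274 bp in WT libraries. Tandem pairs had 1741, 2174 and 2464 bp in KO, 2231, 1798 and 1761 bp in HxD, and 1963, 1981 and 2466 bp in WT libraries. The divergent median was above the tandem median in every mutant library and below it in every WT library. The difference, divergent minus tandem, was 254.5, 137 and 220.5 bp in KO libraries, 105, 263 and 169 bp in HxD libraries, and -127.5, -65.0 and -192 bp in WT libraries. The mutants and WT do not overlap in this difference.

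The mutants and WT stayed apart in this difference in the 4 alternatives below, while its sign in WT depended on the setting. With stricter peaks (−log10 q of at least 5) the difference was 131 to 278 bp in KO, 179 to 323.5 bp in HxD and -183 to -18.5 bp in WT libraries. With lists of equal length the difference was 184.5 to 285 bp in KO, 195.5 to 262 bp in HxD and -100.0 to 16.5 bp in WT libraries. With the gap itself left out it was 231.5 to 436 bp in KO, 233 to 461.5 bp in HxD and 46.0 to 138 bp in WT libraries. With 2 kb in place of 5 kb on either side it was 329 to 515.5 bp in KO, 347.5 to 409.5 bp in HxD and 189 to 255 bp in WT libraries. Gap length differs between the orientations, so the pairs were also split at a gap of 300 bp. The split does not equalise it: below 300 bp the median gap was 79 bp in divergent and 156.5 bp in tandem pairs. Among gaps of up to 300 bp (442 divergent and 98 tandem) the difference was 52.5 to 81.0 bp in KO, 61.0 to 185 bp in HxD and -331.5 to -187 bp in WT libraries. Among longer gaps it was 505 to 588.5 bp in KO, 265.5 to 556.5 bp in HxD and 77.0 to 167.5 bp in WT libraries. Divergent pairs also stood further above other promoters in the mutants, by 271 to 435.5 bp in KO and 281 to 369 bp in HxD, against 74.5 to 134 bp in WT libraries.

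**Figure D3:**
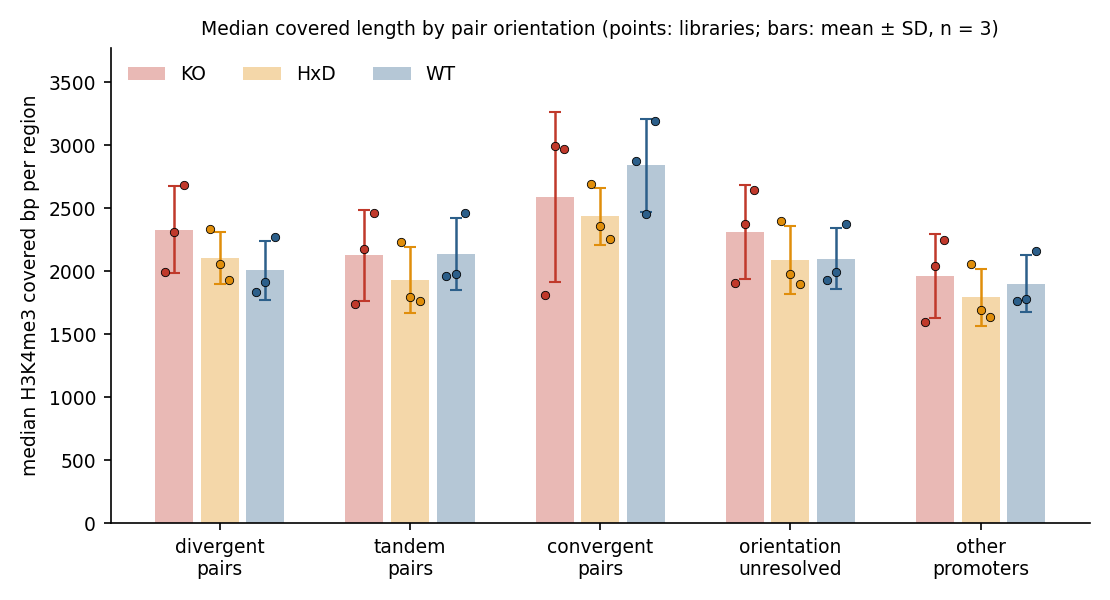
Median covered length per region (bp, vertical axis) for divergent, tandem, convergent and unresolved adjacent pairs and for promoters of other genes. Points are single libraries, bars are the mean and error bars the SD of 3 libraries; divergent pairs averaged 2330 bp in KO, 2109 bp in HxD and 2009 bp in WT, and the libraries of the 3 genotypes overlap.

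Pair by pair, the KO mean was above the WT mean at 404 of 528 divergent pairs, 167 of 311 tandem pairs, 6 of 35 convergent pairs and 201 of 319 unresolved pairs. The median differences, KO minus WT, were 306, 46.0, -309 and 199 bp in these classes. HxD was above WT at 321 divergent, 117 tandem, 5 convergent and 151 unresolved pairs, with median differences of 103, -144, -362 and -52.0 bp. Without KO replicate 2, KO replicate 3, WT replicate 1 or WT replicate 2 the tandem KO median was below 0, the lowest being -108 bp without KO replicate 3. The convergent pairs, whose gap lies at the 3′ ends of both genes, were covered over more bases than the other classes in every library but KO replicate 1, with per-library medians of 1809 to 2996 bp in KO, 2256 to 2692 bp in HxD and 2456 to 3190 bp in WT libraries. With lists of equal length the median differences from WT were 4.83 bp in KO and -6.83 bp in HxD at convergent pairs, and 435 and 203 bp at tandem pairs.

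The sequence around the gap gives a further axis. The CpG observed/expected ratio, the number of CpG dinucleotides relative to that expected from the C and G content, was computed from the 300-base promoter windows and averaged per region. Its median was 0.852 over 526 divergent pairs, 0.698 over 301 tandem pairs and 0.737 over 8832 other promoters with a sequence. Differences in covered length went with this ratio. From the bin under 0.5 through 0.5 to 0.7 and 0.7 to 0.9 to the bin of 0.9 or more, the median difference, KO minus WT, over 105, 200, 367 and 298 adjacent pairs was -194, 36.3, 292 and 366 bp. For HxD minus WT it was -223, -116, 29.0 and 181 bp.

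Other promoters followed the same order, with KO minus WT medians of -297, -9.67, 130 and 310 bp and HxD minus WT medians of -367, -186, -45.0 and 76.7 bp over 2047, 1861, 2801 and 2123 promoters. Spearman's rho between the ratio and KO minus WT was 0.315 across the 970 adjacent pairs with a sequence and 0.423 across 8832 other promoters. With lists of equal length it was 0.237 and 0.407. Within the 526 divergent pairs it was 0.191 for KO minus WT and 0.192 for HxD minus WT, and 0.0737 and 0.0642 with lists of equal length; within the 301 tandem pairs it was 0.287 and 0.234. The points share their libraries and are not independent, and no p is given. Within the bins the divergent pairs were not uniformly ahead of tandem pairs. In the bin of 0.7 to 0.9 the KO minus WT median was 305 bp over 215 divergent and 153 bp over 95 tandem pairs, and in the bin of 0.9 or more it was 353 bp over 206 divergent and 371 bp over 54 tandem pairs. With lists of equal length the bin under 0.5 had a KO minus WT median of 168 bp over the adjacent pairs and -112 bp over other promoters, so its direction at the adjacent pairs depends on the lists.

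**Figure D4:**
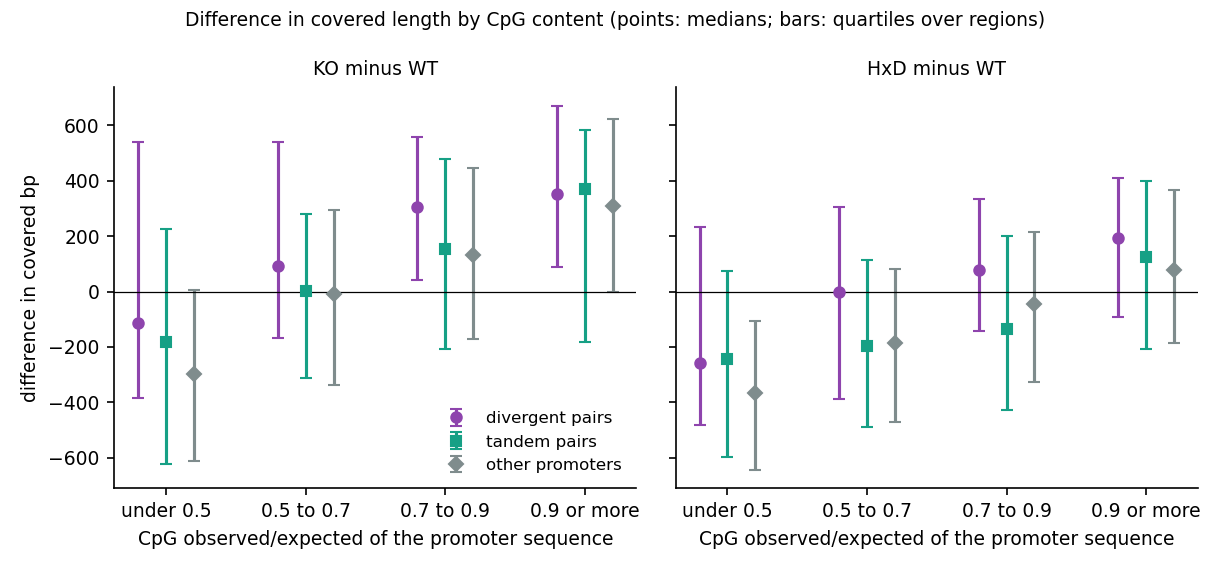
Difference in covered length (bp, vertical axis) between KO and WT on the left and HxD and WT on the right, by CpG observed/expected ratio of the promoter sequence (horizontal axis, 4 bins). Points are medians and bars the quartiles over regions for divergent pairs, tandem pairs and other promoters; all 3 sets shift upwards with CpG content, and at 0.9 or more the KO medians were 353, 371 and 310 bp.

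Short motifs were searched as exact letters on both strands of the 300-base windows of 991 genes in divergent pairs, 307 starting genes in tandem pairs, 8832 other promoters and all 20085 windows of the table. The ETS motif CCGGAAG, bound by GABPA, was found in 29.1% of divergent, 22.5% of tandem and 15.1% of other windows, and in 11.9% of all windows. The YY1 motif ATGGCGGC was in 9.18%, 5.54% and 4.21%, and in 3.08% of all. The TATA box TATAAA ran the other way, in 5.05% of divergent, 9.77% of tandem and 7.71% of other windows, and in 12.7% of all. The CCAAT box was in 44.9%, 43.6% and 38.1% and the GC box GGGCGG in 70.1%, 67.8% and 63.5%, against 38.1% and 47.0% of all windows. The cAMP response element TGACGTCA (3.73%, 3.91% and 3.17%) and the E-box CACGTG (10.9%, 10.1% and 10.2%) were within 1 percentage point between the sets, and were in 2.30% and 7.89% of all windows. Windows of a divergent pair overlap, so the same bases can count for both genes, and a match does not show that a factor binds.

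The pairs with the smallest p for a gain in KO were led by Zwilch-Rpl4 (chromosome 9, gap 64173105 to 64173386), which pairs a kinetochore gene with a gene of the large ribosomal subunit and whose Rpl4 window is printed above. It was covered over 2372, 2423 and 2646 bp in KO libraries, 1903, 1555 and 1715 bp in HxD libraries, and 332, 1013 and 1116 bp in WT libraries. The gap had a peak in all KO and HxD libraries and in no WT library, so it met the peak criterion through mutant libraries alone. Those peaks also count in its covered length, in which the 3 genotypes do not overlap. The difference was 1660 ± 302 bp (SE) for KO minus WT and 904 ± 302 bp for HxD minus WT, with limma adjusted p = 0.066 and 0.287. Where adjusted p-values are given in pairs from here on, KO minus WT comes before HxD minus WT. Pairs ranked by p were picked in these same libraries, so their separation from WT is no separate result.

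Dpagt1-H2ax pairs the enzyme that starts N-glycan assembly with the histone variant phosphorylated at DNA breaks. Its covered length was 3057, 2730 and 4493 bp in KO libraries, 3074, 3138 and 2373 bp in HxD libraries, and 1833, 852 and 1472 bp in WT libraries. Both mutants lie above WT without overlap, and the KO difference was 2041 ± 469 bp (SE; limma adjusted p = 0.0992). Frg2f1-Foxj3, a divergent pair with a forkhead transcription factor, had 2744, 2975 and 2630 bp in KO, 2383, 2469 and 2374 bp in HxD, and 1472, 821 and 1754 bp in WT libraries. It too is separated in both mutants, with differences of 1434 ± 331 bp in KO and 1060 ± 331 bp in HxD (SE; limma adjusted p = 0.103 and 0.266). Fbxo38-Spink10 on chromosome 18, with a gap of 9 bp, had 1618, 1825 and 2445 bp in KO, 1611, 1272 and 1467 bp in HxD, and 612, 719 and 888 bp in WT libraries (limma adjusted p = 0.109 and 0.386).

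At the 5 pairs with the smallest p for a loss in KO, every KO and HxD library lay below every WT library. Their choice by p favours this separation in KO, and HxD is set against the same WT libraries. Over all promoter units, every KO library lay below every WT library at 9.66%, and every HxD library did so at 13.9%. Lrrc66-Sgcb, a tandem pair in which Lrrc66 starts at the gap and Sgcb, the gene of beta-sarcoglycan in the muscle membrane, ends there, had 591, 911 and 420 bp in KO libraries, 1363, 0 and 484 bp in HxD libraries, and 2623, 2394 and 2075 bp in WT libraries. The differences were -1723 ± 336 bp in KO and -1748 ± 336 bp in HxD (SE; limma adjusted p = 0.0681 and 0.0866). Il1rl1-Il18r1, tandem receptor genes for interleukins 33 and 18, had 373, 914 and 293 bp in KO, 1943, 569 and 1513 bp in HxD, and 2083, 2235 and 2957 bp in WT libraries. The KO difference was -1898 ± 372 bp (SE; limma adjusted p = 0.0686).

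Slc17a7-Gfy, a convergent pair with the vesicular glutamate transporter VGLUT1, had 1829, 2893 and 2930 bp in KO, 3260, 2201 and 2588 bp in HxD, and 4847, 4335 and 4719 bp in WT libraries (limma adjusted p = 0.0897 and 0.126). Grin2c-Fdxr, an NMDA receptor subunit beside a mitochondrial reductase, had 1257, 2806 and 1922 bp in KO, 2999, 2493 and 2402 bp in HxD, and 3569, 4134 and 4330 bp in WT libraries (limma adjusted p = 0.0911 and 0.270). Fxyd5-Fxyd7, regulators of the sodium pump, had 642, 1367 and 790 bp in KO, 1673, 1507 and 1513 bp in HxD, and 1819, 2840 and 3445 bp in WT libraries (limma adjusted p = 0.0911 and 0.290). The CpG ratio was 0.297 at Lrrc66-Sgcb, 0.335 at Il1rl1-Il18r1 and 0.288 at Fxyd5-Fxyd7, and 0.629 at Grin2c-Fdxr. Among the pairs with a gain it was 1.06 at Zwilch-Rpl4 and 0.633 at Frg2f1-Foxj3, the last about equal to that of Grin2c-Fdxr. The summed coverage of endothelial or blood markers, given above, was also lower in every mutant library than in every WT library. For Sertoli markers this held in HxD and not in KO, and for Leydig or interstitial markers in neither. The part of these cells in the losses was not tested.

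**Figure D5:**
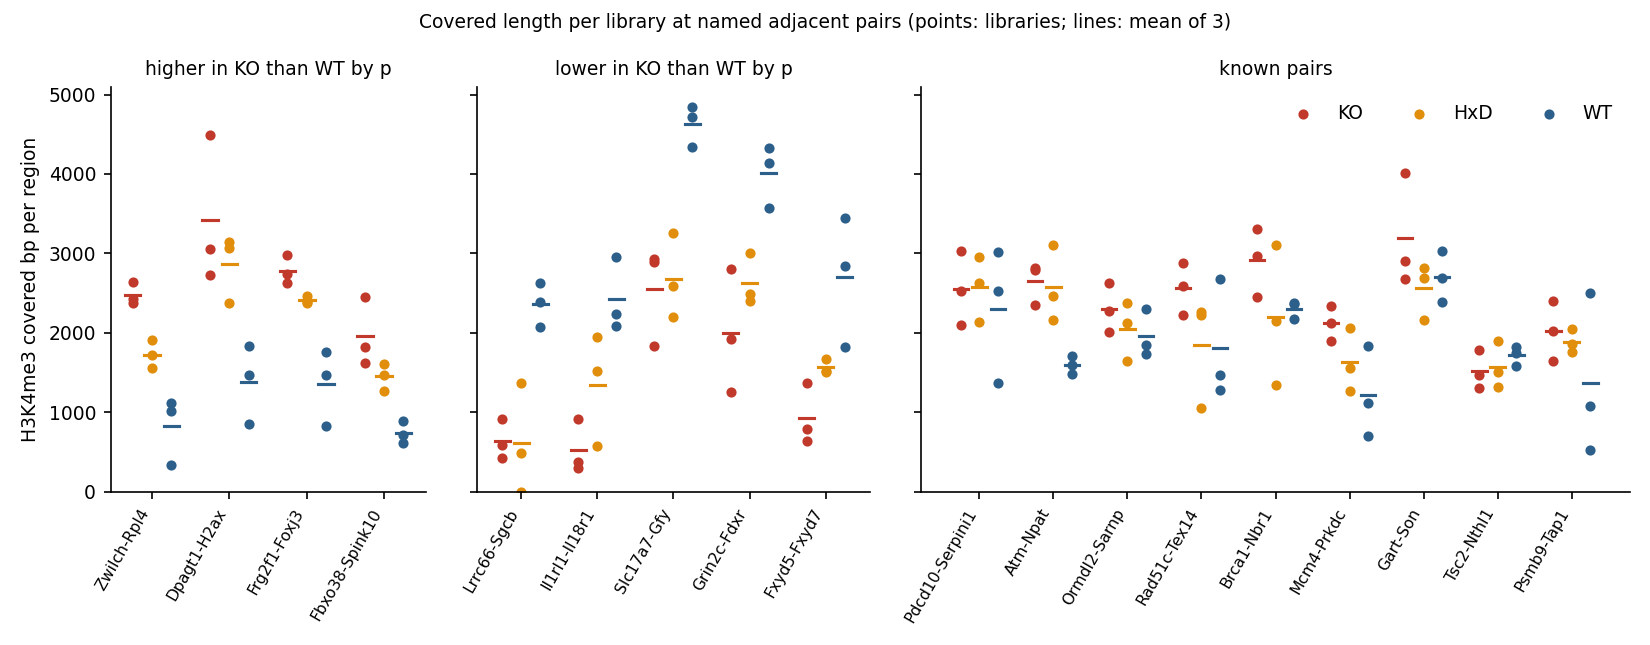
Covered length per region (bp, vertical axis) in each library at 4 of the pairs with the smallest p for a gain in KO, the 5 with the smallest p for a loss in KO, and 9 known pairs; points are libraries and lines the mean of 3. At Zwilch-Rpl4 the KO libraries had 2372 to 2646 bp and the WT libraries 332 to 1116 bp, and at Il1rl1-Il18r1 KO had 293 to 914 bp and WT 2083 to 2957 bp.

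In HxD the smallest p for a loss again included Lrrc66-Sgcb and Slc17a7-Gfy. Kctd11-Acap1 had 2901, 3579 and 3362 bp in KO libraries, 3084, 1750 and 1865 bp in HxD libraries, and 4564, 4108 and 4620 bp in WT libraries, a difference of -2198 ± 450 bp for HxD minus WT (SE; limma adjusted p = 0.0867). Sncg-Mmrn2, gamma-synuclein beside an endothelial matrix protein, had 1596, 1915 and 1729 bp in KO, 1002, 0 and 948 bp in HxD, and 1906, 2148 and 2145 bp in WT libraries (limma adjusted p = 0.674 and 0.123). Rpl36al-Mgat2, a divergent pair of a ribosomal protein gene and an N-glycan transferase with a CpG ratio of 1.09, had 3127, 3807 and 3271 bp in KO, 2805, 2736 and 2072 bp in HxD, and 4194, 4199 and 4899 bp in WT libraries. Both mutants lay below every WT library at this CpG-rich pair, with HxD minus WT at -1893 ± 429 bp (SE; limma adjusted p = 0.123). The smallest p for a gain in HxD included Frg2f1-Foxj3 and Dpagt1-H2ax. Pign-Relch, a divergent pair with an enzyme of GPI anchor synthesis, had 2300, 2470 and 2659 bp in KO, 2916, 2590 and 2238 bp in HxD, and 777, 1654 and 1759 bp in WT libraries (limma adjusted p = 0.205 and 0.242). Tmed7-Eif1a, with a translation initiation factor, had 2104, 2453 and 2881 bp in KO, 2663, 2235 and 1915 bp in HxD, and 693, 1591 and 1286 bp in WT libraries (limma adjusted p = 0.145 and 0.283).

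Pairs long known as divergent or closely linked gave 11 of the regions. The KO mean was above the WT mean at 10 of the 11, with a median difference of 595 bp, and the HxD mean at 7, with a median of 87.3 bp, beside 209 and -3.33 bp over all 1193 regions; the mean was higher at 51.5% of all promoter units in KO and 37.3% in HxD. None passed the adjusted p by limma, and 2 in KO and 1 in HxD were higher at an unadjusted p under 0.05, a level met by 6.11% and 1.56% of all promoter units. Atm-Npat couples the kinase that signals DNA breaks to the coactivator of histone genes across a gap of 60 bp. It had 2818, 2354 and 2795 bp in KO libraries, 3105, 2465 and 2157 bp in HxD libraries, and 1596, 1712 and 1483 bp in WT libraries. Both mutants lie above WT without overlap, by 1059 ± 343 bp in KO and 979 ± 343 bp in HxD (SE; limma adjusted p = 0.2002 and 0.306). Its gap had a peak in 3 KO, 2 HxD and 1 WT libraries.

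Mcm4-Prkdc, a replicative helicase subunit beside the catalytic subunit of DNA-PK, had 2129, 1892 and 2338 bp in KO, 1554, 1265 and 2062 bp in HxD, and 1121, 1840 and 705 bp in WT libraries (limma adjusted p = 0.268 and 0.717), so only KO is above every WT library. Brca1-Nbr1, a repair gene beside an autophagy receptor gene, had 2452, 2970 and 3311 bp in KO, 3111, 1348 and 2153 bp in HxD, and 2370, 2176 and 2367 bp in WT libraries. Here too KO lay above WT, while HxD spanned the WT range, and neither difference passed (limma adjusted p = 0.550 and 0.958). Rad51c-Tex14, which pairs a recombination gene with a gene of germ cell bridges, had 2218, 2584 and 2885 bp in KO, 2220, 2265 and 1056 bp in HxD, and 1278, 2672 and 1468 bp in WT libraries, with overlap in both comparisons.

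Other known pairs overlapped between genotypes. Psmb9-Tap1, immunoproteasome and peptide transporter genes, had 1647, 2022 and 2399 bp in KO, 1859, 1761 and 2045 bp in HxD, and 528, 1074 and 2504 bp in WT libraries. Gart-Son had 2908, 2675 and 4016 bp in KO, 2691, 2819 and 2167 bp in HxD, and 2392, 2691 and 3026 bp in WT libraries. Tsc2-Nthl1, with a gap of 3 bp between a growth regulator and a base excision repair gene, was the pair with a lower KO mean, at 1305, 1474 and 1783 bp in KO, 1891, 1509 and 1320 bp in HxD, and 1746, 1580 and 1820 bp in WT libraries. Pdcd10-Serpini1 and Ormdl2-Sarnp had KO means of 2552 and 2304 bp, HxD means of 2574 and 2048 bp, and WT means of 2304 and 1961 bp.

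Some gaps had a peak in every library of one genotype and in none of another. There were 18 such gaps for KO against WT and 3 in the reverse direction, or 0.919% and 0.153% of all 1958 gaps. For HxD against WT there were 12 and 6, or 0.613% and 0.306%, and between KO and HxD there were 2 with KO peaks and 1 with HxD peaks, or 0.102% and 0.0511%. Since the peak criterion used these same peaks, the counts are descriptions. The 18 and 12 gaps with no WT peak met the criterion through mutant libraries alone. Those peaks also count in the covered lengths of their regions, which are therefore descriptions too. All 3 gaps with peaks only in WT relative to KO, at Igfbp6-Soat2, Dcdc2c-Allc and Kctd17-Tmprss6, met the criterion through WT alone.

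Vmac-Ndufa11 has a gap of 62 bp, shown above, and serves an accessory subunit of respiratory complex I. Its gap had peaks in all KO and HxD libraries and in no WT library, and its region was covered over 2669, 2908 and 2722 bp in KO, 2382, 2435 and 2571 bp in HxD, and 1454, 860 and 2133 bp in WT libraries. The mutants lie above WT without overlap, by 1284 ± 357 bp in KO and 980 ± 357 bp in HxD (SE, limma adjusted p = 0.145 and 0.324). Mutant gap peaks alone let this pair pass and also count in these lengths. Its separation from WT is thus partly built in by the choice and is no separate result. The same holds for Sart3-Iscu, Polh-Xpo5, Nln-Sgtb, Spata1-Gng5 and Chtf8-Utp4. Sart3-Iscu, a splicing recycling factor beside the scaffold of iron-sulfur clusters, had 2722, 3293 and 3763 bp in KO, 2911, 3000 and 3346 bp in HxD, and 1998, 1694 and 2143 bp in WT libraries, also without overlap. Polh-Xpo5, a translesion polymerase beside the exporter of miRNA precursors, had 2293, 1939 and 2738 bp in KO, 2204, 2165 and 1155 bp in HxD, and 1811, 1170 and 1570 bp in WT libraries, with overlap in HxD.

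Nln-Sgtb had 2403, 2434 and 2594 bp in KO, 2494, 1910 and 2181 bp in HxD, and 1909, 1992 and 2076 bp in WT libraries. KO lay above WT there while HxD overlapped it (limma adjusted p = 0.505 and 0.864). Spata1-Gng5 and Chtf8-Utp4 had KO means of 2569 and 2500 bp, HxD means of 2123 and 2178 bp, and WT means of 1619 and 1773 bp. Srsf7-Gemin6 and Rad9b-Vps29 had gap peaks in every KO and no HxD library, with covered lengths of 2214, 2333 and 2944 bp in KO against 2225, 1605 and 1632 bp in HxD for the first, and 1265, 1990 and 2714 bp in KO against 2006, 863 and 1040 bp in HxD for the second. Their WT libraries had 1631, 1135 and 2080 bp at Srsf7-Gemin6, and 1113, 2214 and 2417 bp at Rad9b-Vps29, whose gap met the criterion through KO alone. Mink1-Chrne, a convergent pair with peaks in every WT and no HxD library, had 1335, 1783 and 727 bp in KO, 2082, 666 and 1004 bp in HxD, and 2715, 2925 and 2773 bp in WT libraries. Both mutants lie below WT without overlap there (limma adjusted p = 0.133 and 0.169).

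The extremes of coverage belong to tandem and unresolved pairs. Zfp36l1-Gm52006 was covered most, over 6993, 7272 and 8675 bp in KO, 7644, 6199 and 5126 bp in HxD, and 6345, 6684 and 6978 bp in WT libraries. Icam1-Icam4, Rhof-Setd1b, Car11-Dbp and Tshz1-Zadh2 followed, with KO means of 6469, 6955, 6329 and 6360 bp, HxD means of 6329, 6540, 6200 and 5698 bp, and WT means of 6570, 5775, 6531 and 6301 bp. The least covered included Comp-Crtc1, Nbr1-Tmem106a, Mapk3-Gdpd3 and Nicn1-Amt, with KO means of 137, 315, 709 and 752 bp, HxD means of 212, 510, 605 and 664 bp, and WT means of 886, 588, 141 and 77 bp. None of these 9 passed the threshold by limma (adjusted p from 0.294 to 0.982 in KO).

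Gene groups were described by their counts. No region of any group passed the adjusted p by limma in either mutant. As background for the means, KO was above WT at 65.2% of the 1193 regions and HxD at 49.8%. The median differences over these regions were 209 and -3.33 bp. Over all promoter units the means were higher at 51.5% in KO and 37.3% in HxD. DNA repair genes gave 37 regions, of which the KO mean was above the WT mean at 30 and the HxD mean at 25, with median differences of 528 and 129 bp. At an unadjusted p under 0.05, 5 were higher and 0 lower in KO, and 1 was higher and 1 lower in HxD. Over all promoter units that level was met by 6.11% higher and 7.95% lower in KO and by 1.56% higher and 9.51% lower in HxD, the background for the counts of the groups that follow. Genes of mitochondrial proteins gave 77 regions, 53 higher in mean in KO and 47 in HxD, with medians of 228 and 76.7 bp; 7 were higher and 2 lower in KO, and 4 higher and 2 lower in HxD, at that level. Genes of cytoplasmic ribosomal proteins gave 22 regions, 16 higher in mean in KO and 14 in HxD, with medians of 381 and 82.0 bp; 3 were higher and 1 lower in KO, and 1 higher and 1 lower in HxD, at that level. Among them was Micos13-Rpl36 with 3523, 4960 and 6097 bp in KO, 5562, 4892 and 4016 bp in HxD, and 3789, 2208 and 4573 bp in WT libraries.

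Core histone genes gave 21 regions on 3 chromosomes, 15 of them on chromosome 13, and 7 overlap the region before them, so they are not separate measurements. The KO mean was above the WT mean at 19 and the HxD mean at 18, with median differences of 1028 and 337 bp, and 9 were higher in KO and 2 in HxD at an unadjusted p under 0.05, with 0 lower in either, against 6.11% and 1.56% of all promoter units. H2bc7-H2ac7 had 3997, 6739 and 7255 bp in KO, 5096, 4530 and 4996 bp in HxD, and 3690, 4198 and 4776 bp in WT libraries (limma adjusted p = 0.315 and 0.809), with overlap between genotypes in both comparisons. Many core histone genes are near-identical copies, and the placement of reads that match several of them was not stated in the labels.

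Genes of chromatin and DNA methylation gave 13 regions with medians of 440 bp in KO and 264 bp in HxD, 10 and 8 of them higher in mean; at that level 2 were higher and 0 lower in KO, and 2 higher and 1 lower in HxD. Commd3-Bmi1, a tandem pair that includes the Polycomb gene Bmi1, had 6146, 5972 and 6682 bp in KO, 7149, 4675 and 3956 bp in HxD, and 4641, 4284 and 4407 bp in WT libraries, so KO lay above WT (limma adjusted p = 0.301 and 0.744). Germline and meiosis genes gave 7 regions, 6 higher in mean in KO and 4 in HxD, with medians of 416 and 34.0 bp and 0 at that level in either direction. Genes of the proteasome and ubiquitin system gave 26 regions, 15 higher in KO and 13 in HxD, with medians of 219 and 29.3 bp, and zinc finger genes of the Zfp series gave 26, 15 and 12 higher, with medians of 165 and -57.5 bp. At that level the proteasome and ubiquitin group had 2 higher and 0 lower in KO and 0 in HxD, and the Zfp group had 1 higher and 2 lower in KO and 0 higher and 3 lower in HxD. Developmental regulators gave 17 regions, 9 higher in mean in KO and 8 in HxD, with medians of 109 and -103 bp; at that level 1 was higher and 0 lower in KO, and 1 higher and 1 lower in HxD. Gbx2-LOC102637806, with a homeobox gene, had 4054, 5290 and 5731 bp in KO, 5434, 4278 and 4138 bp in HxD, and 5893, 5778 and 8554 bp in WT libraries, and was below WT in both mutants without overlap (limma adjusted p = 0.360 and 0.351).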

How the data were processed

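Each H3K4me3 library was deposited as a peak list in narrowPeak form on mm10, with coordinates, a score (10 times the −log10 q), the authors' fold enrichment at the summit as a ratio, and −log10 values of p and q. The deposited lists hold no peak with a q-value above 0.01, one list per sample. The submitters' processing notes name MACS2 2.1.0, Bowtie2 2.5.0, deepTools 3.5.1, bedtools 2.27.1, Trim Galore and SAMtools 1.16.1. Their settings and any use of IgG as control: not given in the sources used here. Gene coordinates and promoter sequences are those of RefSeq on GRCm38.p6, whose coordinates match mm10.

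Covered bases were counted per gap with 5 kb on either side, and per gene end with 5 kb on either side for other promoters marked in at least 3 lists (Python 3.11.15, numpy 2.4.6, pandas 2.3.3; figures with matplotlib 3.10.9). For other promoters the gene end was the one with more covered bases over all lists, chosen without regard to strand. KO, HxD and WT were compared on covered bases in 1 limma 3.58.1 fit (R 4.3.3; eBayes with trend) across 9 libraries and 14330 units, with Benjamini-Hochberg adjustment and a threshold of 0.05. The fit was tested on simulated data. The members and gene lists were chosen with earlier results of these data known. Named regions are the 5 lower and 5 higher with the smallest p per mutant, the 5 most and 5 least covered, the known pairs, gaps with peaks in all libraries of 1 genotype and none of another, and up to 4 per gene list. A few regions that this rule names are not reported here. Alternatives were lists of equal length, stricter peaks (−log10 q of at least 5), gaps of at most 500 bp, a 2 kb flank, peaks in all 9 lists, no peak filter, a log2 scale, centring of libraries, only the 2 groups compared, a replicate block, each library left out, and, chosen after seeing the data, the gap left out.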

Additional observations from a re-analysis of the deposited data

How the results depend on the processing

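The count of adjacent pairs called between KO and WT (limma, adjusted p of 0.05) depended on how libraries were put on a common footing. It was 0 in either direction as reported, but 21 higher and 3 lower with lists of equal length, and 21 higher and 15 lower with each library centred, against 175 higher and 21 lower and 142 higher and 252 lower over all promoter units. Of the 21 higher pairs, 10 were shared between these settings, among them Zwilch-Rpl4, Frg2f1-Foxj3 and Fbxo38-Spink10. Zwilch-Rpl4 met the peak criterion through mutant libraries alone, so its call is no separate result. For the lower direction, 3 pairs were shared (Grin2c-Fdxr, Il1rl1-Il18r1 and Slc17a7-Gfy). In HxD, 4 were called lower with libraries centred. Over all promoter units the count called lower in HxD ran from 0 to 51 across the alternatives. The count for the centred setting alone is not given here, so the 4 cannot be set against it. Without the peak filter, 1 pair was lower in KO and 2 in HxD, all outside the 1193. The count over all promoter units in that setting is not given here either. Leaving out 1 library gave 0 to 1 lower calls in KO (Pgap2-Rhog, without KO replicate 2), against 0 to 22 over all promoter units. Lists of equal length moved the medians, KO minus WT and HxD minus WT, to 560 and 347 bp over all adjacent pairs, 678.5 and 466 bp over divergent pairs, and 435 and 203 bp over tandem pairs. With 1 library left out, the divergent medians ran from 149 to 489 bp in KO and -8.92 to 251 bp in HxD, and the tandem medians from -108 to 300 bp and -298 to -4.00 bp. The median difference from WT was larger over divergent than over tandem pairs under all alternatives in bp. The excess was 156.5 to 343 bp for KO minus WT and 154 to 290 bp for HxD minus WT. It was not computed on the log2 scale. Whether replicate numbers pair the samples is not known. Same-numbered libraries of different genotypes correlated at -0.240 to 0.0797 over 9 pairs, and others at -0.113 to 0.173. The lowest values were those of same-numbered KO and HxD libraries, at -0.240, -0.189 and -0.181. Such correlations cannot show whether samples were paired. With the replicate block the count of calls was 0, as without it. The cause of these differences between settings was not tested. The unknown depth of the libraries limits how far covered bases can be compared.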
